A study of Mus musculus with 6 samples.

Results

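Integrins, laminins and nidogens are the receptors and the network proteins through which cells attach to basement membranes and the surrounding matrix. The 28 genes described here are those of the expression table whose symbol is Itga with a number, Itgav, Itgb with a number, Lama, Lamb or Lamc with a number, Nid1 or Nid2. They were 18 integrin chains, 8 laminin chains and 2 nidogens, out of 13706 genes in all, and all 28 passed the filter on low values (13648 genes tested). The rule uses symbols only, not measured values. Itgb6, Itgb7, Lama3, Lamb3 and Lamc3 match the same pattern in the GENCODE M21 annotation and were not analysed here, and letter-named leukocyte integrins such as Itgam fall outside it.

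Primary dermal fibroblasts of the mouse were profiled by a 3' tag method (QuantSeq) in 3 groups of 2 libraries. Control cells were Yap1 fl/fl and Wwtr1 fl/fl. Knockout (KO) cells carried these alleles together with R26-CAG-CreER, in which 4-hydroxytamoxifen activates Cre and deletes the genes of the transcription coactivators YAP and TAZ. The KO + H-151 group had the KO genotype and was also given 1 µM H-151, an inhibitor of the DNA-sensing adaptor STING, which the treatment protocol spells H-15. No cells of the control genotype received H-151. Effects of H-151 that need the knockout and effects that do not therefore cannot be told apart. Cells of every group, the Cre-free controls included, received 1 µM 4-hydroxytamoxifen for 72 hr. The Cre is driven from ROSA26 and is not restricted to fibroblasts, and since control cells lack it, effects of Cre and of losing YAP and TAZ cannot be told apart. The labels do not say how many mice or cultures gave the cells, so p-values measure the spread between these libraries, which may be technical.

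An integrin is a pair of an α and a β chain in the plasma membrane. The α chain largely sets which matrix protein is bound, while cytoplasmic adaptors tie the β chain to actin. Laminins are trimers of an α, a β and a γ chain that assemble into sheets under epithelia and around muscle, vessel and nerve cells, and nidogens link these sheets to collagen IV. Fibroblasts of the dermis are known mainly for β1 integrins that bind fibrillar collagen and fibronectin.

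Each library had between 12444986 and 15308100 reads over the table's genes, of which the 28 genes took 0.233% to 0.269%. Wwtr1 stood at 213 and 218 scaled CPM (read counts that the authors scaled to library size) in control, 4.79 and 5.03 in KO and 3.07 and 4.00 in KO + H-151, and Yap1 at 122 and 128, 66.4 and 68.3, and 45.3 and 42.4. Both were lower in every Cre-bearing library than in either control library, but the labels leave the floxed exons unnamed, and tags that lie outside them check nothing. All 10 fibroblast markers examined were present, from Col1a2 (9749 to 16106 scaled CPM) down to Fap (5.77 to 18.99), but their levels moved. Their sum was 32546 to 33094 in control, 37200 to 39122 in KO and 24108 to 26070 in KO + H-151. In KO 4 rose and 1 fell (Pdgfra, by -1.19 on the log2 scale). With H-151 against KO 6 fell, among them Col1a1 by -0.92 and Col3a1 by -0.77. The 4 that rose there were Pdgfra (1.05), Lum (0.32), Thy1 (0.24) and Dcn (0.21). Col1a2, Col1a1, Vim and Col3a1 had the highest levels and weigh most in the sum, which is therefore no count of fibroblasts. The sum was lowest in the KO + H-151 libraries, as were Itga11 and Itgb1, and its part in their differences was not tested.

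KO cells had 12 of the 28 genes at a higher level than control cells (42.9%) and 4 at a lower one (14.3%), where 18.2% of all genes tested were higher and 14.2% lower (limma on log2 values, Benjamini-Hochberg adjusted p under 0.05, the threshold throughout). The median log2 difference of the members was 0.13, beside -0.0087 over all genes. In KO + H-151 against KO, 3 were higher (10.7%) and 13 lower (46.4%), against 19.4% and 21.4% of all genes, with a median of -0.29 beside 0.015. In KO + H-151 against control, 4 were higher (14.3%) and 8 lower (28.6%), against 11.5% and 11.4% of all genes, with a median of -0.18 beside 0.00048. Any 2 of these comparisons share a group of libraries, so they are not independent of each other. Scaling moved these splits. KO against control counted 10 members higher and 6 lower under total-count scaling. KO + H-151 against KO counted 7 higher and 9 lower under total-count scaling and 6 and 10 under quantile normalization. Of all 13648 genes tested, KO against control had 1727 higher and 4054 lower under total-count scaling, beside 2483 and 1938 in the main fit. KO + H-151 against KO had 4770 and 1930 under total-count scaling and 3546 and 2179 under quantile normalization, beside 2643 and 2923. Total-count scaling moved the median of all genes to -0.16 in the former and to 0.18 in the latter comparison.

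**Figure D1:**
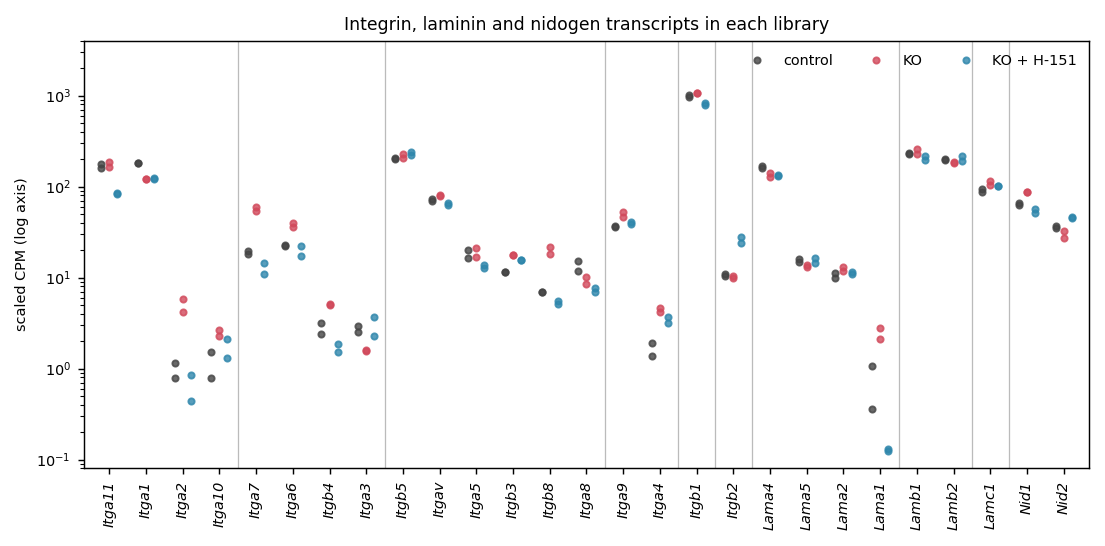
Level of 27 of the transcripts in each of the 6 libraries, in scaled CPM on a log axis, as points coloured by group and ordered by role (collagen receptor, laminin receptor, fibronectin and RGD receptor, VCAM1 and tenascin receptor, shared β, leukocyte β, laminin α, β and γ chains, nidogens). Itgb1 is the highest in every library, at 793 to 1072, and Lama1 the lowest in the KO + H-151 libraries, at 0.131 and 0.125.

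The α chains that bind collagen moved apart from each other. Itga1, whose α1β1 receptor binds collagen IV and fibrillar collagens, fell in KO and stood at that lower level with H-151. Itga11, whose α11β1 receptor binds fibrillar collagen on mesenchymal cells, did not pass the test in KO and fell with H-151. Itga2, the collagen receptor chain of platelets and epithelia, rose from a low level in KO and fell with H-151.

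Itga1 stood at 183 and 179 scaled CPM in control, 121 and 121 in KO, and 122 and 125 in KO + H-151. All 4 KO-genotype libraries lay below both control libraries, with a log2 difference (on the log2(scaled CPM + 1) scale, ± SE) of -0.58 ± 0.07 in KO (adjusted p = 3.12e-06, limma) and -0.55 ± 0.07 in KO + H-151 against control (1.57e-05). KO + H-151 differed from KO by 0.03 (95% interval -0.11 to 0.17, adjusted p = 0.75), a difference that passed the test under total-count scaling (0.21, adjusted p = 0.0168) and quantile normalization (0.22, 0.0136). Itga11 stood at 175 and 161 in control, 163 and 186 in KO, and 84.4 and 82.4 in KO + H-151. Control and KO overlapped (0.05 ± 0.08, adjusted p = 0.662), and both H-151 libraries were lower than the other 4, by -1.05 ± 0.08 against KO (1.13e-08) and -1.0003 ± 0.08 against control (1.2e-07). The ratio of Itga1 to Itga11 was accordingly 1.05 and 1.11 in control, 0.744 and 0.651 in KO, and 1.44 and 1.52 in KO + H-151.

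Itga2 stood at 1.14 and 0.793 in control, 5.75 and 4.17 in KO, and 0.849 and 0.438 in KO + H-151, from 27, 115 and 20 reads per group. Only the KO libraries were high: the difference was 1.59 ± 0.23 in KO (adjusted p = 4e-05, limma) and -1.86 ± 0.23 with H-151 against KO (6.02e-06), and the control and KO + H-151 libraries overlapped. Itga10, the collagen receptor chain known from cartilage, stood at 0.783 and 1.51 in control, 2.26 and 2.64 in KO, and 2.09 and 1.31 in KO + H-151. Its rise in KO (0.70 ± 0.23, adjusted p = 0.0303) was lost without control replicate 1 (0.254), KO replicate 1 (0.0855) or KO replicate 2 (0.168), and in edgeR (0.0522), DESeq2 (0.145) and total-count scaling (0.0521).

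Itga1 and Itga2 are neighbours on chromosome 13 of GRCm38 and are read from the same strand. Itga2 lies at 114833081 to 114932100 and Itga1 at 114953096 to 115101964, with 20995 bases between them. They differed from control in opposite directions in KO. The 200 bases before each start site are shown because they are the promoter ends of this adjacent pair (RefSeq, GRCm38.p6, both on the minus strand, at chr13:115101965-115102164 for Itga1 and chr13:114932101-114932300 for Itga2). Neither holds the letters GGAATG, which TEAD factors bind, or the interferon-stimulated response element (ISRE) on either strand, so all letters are in lower case.
Itga1: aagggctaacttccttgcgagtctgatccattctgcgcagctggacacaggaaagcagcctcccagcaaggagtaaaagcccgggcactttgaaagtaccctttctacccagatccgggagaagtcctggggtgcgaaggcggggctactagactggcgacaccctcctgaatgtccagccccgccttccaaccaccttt
Itga2: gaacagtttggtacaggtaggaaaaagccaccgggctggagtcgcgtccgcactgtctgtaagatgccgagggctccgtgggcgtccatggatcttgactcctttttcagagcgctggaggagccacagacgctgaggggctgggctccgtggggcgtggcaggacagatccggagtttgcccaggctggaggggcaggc

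Of the 4 laminin receptor chains, 3 rose in KO (Itga7, Itga6 and Itgb4), which is 75% beside 18.2% of all genes tested. The same 3 fell with H-151 against KO, 75% beside 21.4% of all genes. Both comparisons share the KO libraries, which favours such a pair of calls. Itga7, known as the laminin receptor of muscle, stood at 17.9 and 19.7 in control, 54.5 and 60.3 in KO, and 11.0 and 14.4 in KO + H-151. The 3 groups did not overlap, with 1.56 ± 0.13 in KO (adjusted p = 5.72e-08, limma), -2.10 ± 0.13 with H-151 against KO (1.03e-09) and -0.55 ± 0.13 in KO + H-151 against control (0.00496). The last call was lost without control replicate 2 (0.0619) and in the fit with no trend of variance on level (0.0508). Itga6, which pairs with β1 or β4, stood at 22.4 and 22.7 in control, 35.6 and 39.3 in KO, and 22.02 and 17.3 in KO + H-151 (0.71 ± 0.12 in KO, adjusted p = 0.000232, and -0.90 ± 0.12 with H-151, 1.49e-05). KO libraries were high and the other 4 libraries lower, with 1 KO + H-151 library close to both controls.

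Itgb4, the β chain of hemidesmosomes, was lower still, at 3.20 and 2.38 in control, 4.96 and 5.11 in KO, and 1.503 and 1.88 in KO + H-151. Its rise in KO (0.68 ± 0.20, adjusted p = 0.0152, limma) was lost without control replicate 2 (0.146), KO replicate 1 (0.0694) or KO replicate 2 (0.0838) and in DESeq2 (0.0949), while its fall with H-151 (-1.17 ± 0.20, 0.000187) held in every alternative in which it was tested. Itga3, an epithelial laminin receptor chain, stood the other way, at 2.92 and 2.52 in control, 1.57 and 1.62 in KO, and 3.72 and 2.25 in KO + H-151. KO was lower than control without passing the test (-0.52 ± 0.22, adjusted p = 0.0817; 0.0313 under total-count scaling). The rise with H-151 (0.60 ± 0.22, adjusted p = 0.0389) was lost without KO replicate 1 (0.137), KO replicate 2 (0.119) or KO + H-151 replicate 1 (0.355), and in DESeq2 (0.143). Tags at the 3' end do not separate splice forms of Itga6 or Itga7. The last 500 bases of Itga7 overlap an exon of Mettl7b on the opposite strand. The strand setting of the authors' counting is not given in the sources used here, so reads of Mettl7b could be counted with Itga7. Mettl7b is not among the genes of the expression table, so its level cannot be given.

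**Figure D2:**
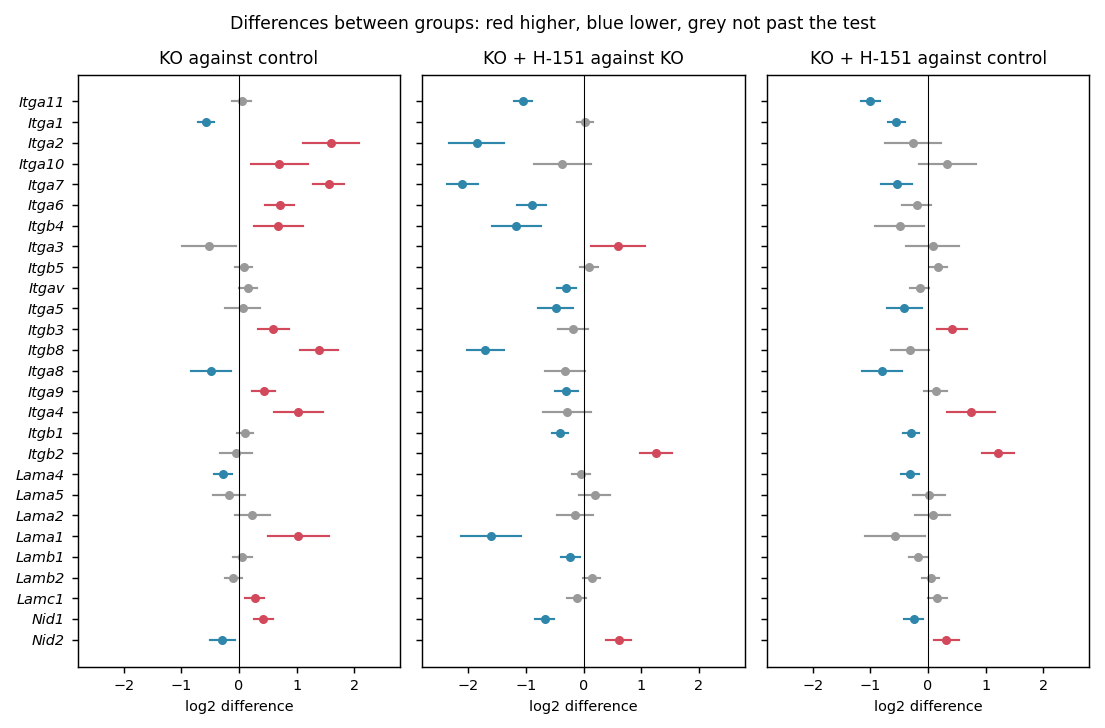
Log2 difference (log2(scaled CPM + 1) scale) of 27 of the transcripts in the 3 comparisons, as points with 95% intervals from limma, red where higher, blue where lower and grey where the adjusted p missed 0.05. Itga2, Itga7, Itgb8 and Lama1 are right of 0 in KO against control and left of 0 in KO + H-151 against KO, while Itga11 is near 0 in the former (0.05) and at -1.05 in the latter.

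Among chains of fibronectin and other RGD receptors, Itgb8 and Itgb3 rose in KO and Itga8 fell. Itgb8, whose αvβ8 receptor activates latent TGF-β, stood at 6.91 and 6.92 in control, 21.4 and 18.2 in KO, and 5.16 and 5.57 in KO + H-151. The KO libraries were high and those with H-151 slightly below control: 1.39 ± 0.15 in KO (adjusted p = 2e-06, limma), -1.71 ± 0.15 with H-151 against KO (1.42e-07) and -0.32 ± 0.15 against control (0.161). Itgb3, of the vitronectin receptor αvβ3, stood at 11.4 and 11.5 in control, 17.8 and 17.9 in KO, and 15.5 and 15.6 in KO + H-151. Both KO groups were above control (0.60 ± 0.13, adjusted p = 0.00142, and 0.41 ± 0.13, 0.0247), and H-151 against KO did not pass (-0.18 ± 0.13, 0.259). The Itgb3 call in KO + H-151 against control was lost without control replicate 1 (0.101) or 2 (0.105), without KO + H-151 replicate 1 (0.0724) or 2 (0.0711) and in DESeq2 (0.0919).

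Itga8, the receptor chain for nephronectin, stood at 11.8 and 15.1 in control, 8.45 and 10.2 in KO, and 6.86 and 7.63 in KO + H-151. All 4 KO-genotype libraries were below both controls, by -0.48 ± 0.16 in KO (adjusted p = 0.0347, limma) and -0.80 ± 0.16 in KO + H-151 (0.00198). The former was lost without control replicate 2 (0.313), KO replicate 1 (0.242) or KO replicate 2 (0.057), in DESeq2 (0.1) and without a trend (0.0597), and the latter without control replicate 2 (0.0512). Itgb5, the most abundant chain of this role, stood at 199 and 208 in control, 203 and 228 in KO, and 237 and 224 in KO + H-151 and passed in none of the 3 comparisons. Under total-count scaling and quantile normalization it was called higher with H-151 than in KO (0.27, adjusted p = 0.0051, and 0.33, 0.00136), and under the latter higher than in control (0.26, 0.0138). Itgav, the α chain of all αv receptors, and Itga5, of the fibronectin receptor α5β1, did not pass in KO and fell with H-151 against KO, by -0.30 ± 0.08 (0.0048) and -0.48 ± 0.14 (0.0136). Those calls were lost without KO replicate 1 for Itgav (0.0524) and without KO replicate 2 for Itga5 (0.192), and under total-count scaling for both (0.185 and 0.0832) and quantile normalization for Itgav (0.0938). Itga5 was also lower in KO + H-151 than in control (-0.41 ± 0.14, adjusted p = 0.0477), a call lost when any 1 library but control replicate 1 was left out (0.0514 without KO + H-151 replicate 2, 0.059 and 0.0617 without KO replicates 1 and 2, 0.14 without KO + H-151 replicate 1 and 0.359 without control replicate 2). It was lost too with a pseudocount of 4 (0.0539), total-count scaling (0.0544), only the groups compared (0.0633), DESeq2 (0.0973) and no trend (0.118).

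The α chains that bind VCAM1 and tenascin both rose in KO. Itga4 stood at 1.92 and 1.37 in control, 4.18 and 4.60 in KO, and 3.66 and 3.19 in KO + H-151. It was above both controls in all 4 KO-genotype libraries (1.03 ± 0.20 in KO, adjusted p = 0.000694, limma, and 0.75 ± 0.20 in KO + H-151, 0.0117), and the latter call was lost without control replicate 2 (0.124) or KO + H-151 replicate 1 (0.0707) and in DESeq2 (0.0603). Its counter-receptor Vcam1 stood at 197 and 197, 456 and 470, and 171 and 170 in the same groups. Itga9 stood at 35.7 and 36.6 in control, 46.1 and 52.5 in KO, and 41.1 and 38.3 in KO + H-151, so that the groups did not overlap (0.43 ± 0.09 in KO, adjusted p = 0.00191, and -0.30 ± 0.09 with H-151 against KO, 0.0169). The rise was lost without KO replicate 2 (0.0537). The fall was lost without KO replicate 2 (0.191) or KO + H-151 replicate 2 (0.0773), without a trend (0.06) and with total-count (0.274) or quantile (0.104) normalization. The 3' end of Itga4 overlaps an exon of Cerkl on the opposite strand, which had 1.19 to 3.001 scaled CPM across the libraries.

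Itgb1, the β chain shared by most of these receptors, was the most abundant of the 28 transcripts. It stood at 957 and 1024 in control, 1060.1 and 1072 in KO, and 793 and 818 in KO + H-151. The H-151 libraries were lower than the other 4, by -0.40 ± 0.07 against KO (adjusted p = 0.000122, limma) and -0.30 ± 0.07 against control (0.00352), while KO differed from control by 0.11 ± 0.07 (0.238). The call against control was lost without control replicate 2 (0.0659) and without a trend (0.0675). The method gives about 1 tag per transcript, so levels of different genes can be compared without a length correction, as far as each gene's 3' end is equally well mapped. On that scale the 12 α chains that can pair with β1 summed to 538 and 533 in control, 539 and 581 in KO and 376 and 369 in KO + H-151, and Itgb1 was 1.78 and 1.92, 1.97 and 1.84, and 2.11 and 2.22 times that sum. The sum and Itgb1 were both lowest in the KO + H-151 libraries.

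The make-up of these α chains differed between the groups (given as shares with no test). Collagen-binding chains made up 66.8% and 64.3% of the sum in control, 54.1% and 53.9% in KO and 55.5% and 56.8% in KO + H-151. Laminin-binding chains made up 8.03% and 8.43% in control, 16.998% and 17.4% in KO and 9.76% and 9.21% in KO + H-151. Itgav took 13.0% and 13.6%, 14.9% and 13.5%, and 17.6% and 16.9% of the sum, and it also pairs with other β chains. The collagen-binding share was lower in all 4 KO-genotype libraries than in either control library, whereas the laminin-binding share was high in the KO libraries only.

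**Figure D3:**
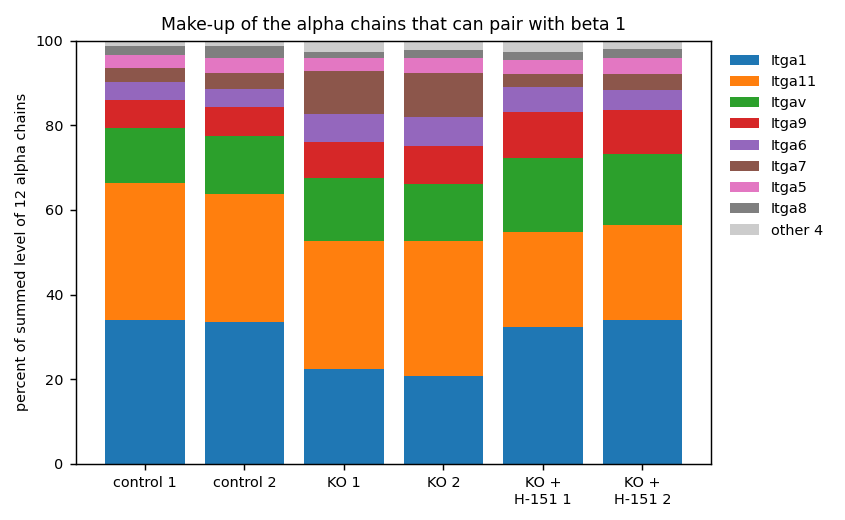
Share of each α chain in the summed scaled CPM of the 12 α chains that can pair with β1, in percent, for each of the 6 libraries (stacked bars; Itga2, Itga3, Itga4 and Itga10 are drawn together). The Itga1 segment is 34.0% and 33.6% in control and 22.4% and 20.8% in KO, the Itga7 segment grows from 3.33% and 3.70% to 10.1% and 10.4%, and the Itga11 segment is 22.4% in both KO + H-151 libraries.

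Itgb2, the β chain of leukocyte integrins, rose with H-151. It stood at 10.8 and 10.4 in control, 9.93 and 10.4 in KO, and 27.6 and 24.1 in KO + H-151, where both libraries lay above the other 4 (1.26 ± 0.13 against KO, adjusted p = 9.07e-07, limma, and 1.21 ± 0.13 against control, 5.74e-06). Its α partners, outside the rule, were also higher with H-151 than in KO: Itgam by 0.90 ± 0.21 (adjusted p = 0.00245), Itgax by 0.97 ± 0.22 (0.00239) and Itgal by 0.82 ± 0.21 (0.0054). Of 15 macrophage markers listed for this check, 14 were tested, and all 14 were higher with H-151 than in KO and 13 higher than in control. Their summed level was 566 to 647 in control, 701 to 706 in KO and 1371 to 1630 in KO + H-151, and among the defining genes Adgre1 stood at 7.86 to 10.2 in the other 4 libraries and at 30.2 and 26.5 with H-151. In such bulk samples a different number of cells of a type and a different RNA level per cell cannot be told apart, and the part of these cells in the Itgb2 difference was not tested.

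Of 8 laminin chains, 2 rose (Lamc1 and Lama1) and 1 fell (Lama4) in KO, 0 rose and 2 fell (Lama1 and Lamb1) with H-151 against KO, and 0 rose and 1 fell (Lama4) in KO + H-151 against control. That is 25% higher and 12.5% lower in KO (18.2% and 14.2% of all genes), 0% higher and 25% lower with H-151 against KO (19.4% and 21.4%), and 0% higher and 12.5% lower against control (11.5% and 11.4%), in all but the 2 shares of 0% near those of all genes. The α chain Lama4, of the laminins of mesenchyme and vessels, made up 82.5% to 86.5% of the laminin α level in each library. It stood at 160.2 and 167 in control, 128 and 142 in KO, and 129.9 and 133 in KO + H-151, below both controls in all 4 KO-genotype libraries (-0.28 ± 0.07 in KO, adjusted p = 0.00693, limma, and -0.32 ± 0.07 in KO + H-151, 0.00382). The call in KO was lost without control replicate 2 (0.0728), KO replicate 1 (0.122) or a trend (0.0737), and the other without control replicate 2 (0.0538) or a trend (0.0697). Lama1, a chain of embryonic basement membranes, stood near the detection limit, at 1.07 and 0.36 in control, 2.09 and 2.81 in KO, and 0.131 and 0.125 in KO + H-151, from 20, 57 and 4 reads per group. The KO libraries were high and those with H-151 lowest (1.03 ± 0.25 in KO, adjusted p = 0.004, and -1.60 ± 0.25 with H-151 against KO, 6.66e-05), and the rise in KO was lost without control replicate 2 (0.0736) or KO replicate 2 (0.0611). KO + H-151 against control missed the test for Lama1 (-0.57 ± 0.25, 0.112) but passed with a pseudocount of 0.25 (-1.25, 0.0485), without control replicate 2 (-0.87, 0.049) and in edgeR (-2.41, 0.0316), so that the size of this difference depends on the setting.

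Lamc1, the γ chain of most laminins, stood at 86.2 and 94.0 in control, 116 and 103 in KO, and 101 and 100.5 in KO + H-151. Its rise in KO (0.27 ± 0.08, adjusted p = 0.0131, limma) was lost without control replicate 1 (0.137), KO replicate 1 (0.187) or a trend (0.0925), and with total-count (0.263) or quantile (0.308) normalization. The β chain Lamb1 stood at 235 and 228 in control, 227 and 257 in KO, and 218 and 195 in KO + H-151, and overlapped between control and KO. Its fall with H-151 against KO (-0.23 ± 0.08, 0.0249) was lost without KO replicate 2 (0.304), KO + H-151 replicate 2 (0.159) or a trend (0.148) and under total-count scaling (0.608), and under quantile normalization the sign turned (0.014, 0.899). Lamb2, the β chain of synaptic and mature basement membranes, stood between 181 and 217 in all libraries and passed in no comparison, although it was called under total-count scaling and quantile normalization (lower in KO, -0.26 and -0.25, and higher with H-151 than in KO, 0.32 and 0.38). Lama5 (13.0 to 16.3), of the laminins of mature epithelial and vessel basement membranes, and Lama2 (9.87 to 13.2), of the laminin of muscle and nerve, passed in none either. Lama5 was called higher with H-151 than in KO under total-count scaling (0.36, adjusted p = 0.0319). Lamb1 was called lower in KO + H-151 than in control without KO + H-151 replicate 1 (-0.25, 0.0283), and Lamb2 higher with H-151 than in KO without that library (0.23, 0.0156).

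The 2 nidogens moved in opposite directions in each of the 3 comparisons. Nid1 stood at 65.7 and 62.3 in control, 86.1 and 86.4 in KO, and 56.2 and 51.3 in KO + H-151. Its groups did not overlap (0.42 ± 0.08 in KO, adjusted p = 0.00056, limma, -0.67 ± 0.08 with H-151 against KO, 3.9e-06, and -0.25 ± 0.08 in KO + H-151 against control, 0.0326). Nid2 stood at 37.2 and 35.5 in control, 26.9 and 32.5 in KO, and 44.7 and 46.5 in KO + H-151. Its groups did not overlap either and stood in the reverse order (-0.29 ± 0.10 in KO, 0.0415, 0.61 ± 0.10 with H-151 against KO, 0.00017, and 0.32 ± 0.10 in KO + H-151 against control, 0.0332). Summed, the nidogens ranged only from 97.8 to 119 scaled CPM, while the ratio of Nid1 to Nid2 was 1.76 and 1.76 in control, 3.20 and 2.66 in KO, and 1.26 and 1.10 in KO + H-151.

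The nidogen calls in KO + H-151 against KO held in every alternative, as did the rise of Nid1 in KO. The fall of Nid2 in KO was lost without control replicate 1 (adjusted p = 0.19, limma), control replicate 2 (0.0981) or KO replicate 1 (0.365), in DESeq2 (0.136) and without a trend (0.113). In KO + H-151 against control, the Nid2 call was lost without control replicate 1 (0.0886) or 2 (0.189), without KO + H-151 replicate 2 (0.0989), in DESeq2 (0.0832) and without a trend (0.114). The Nid1 call was lost there when any 1 library but KO + H-151 replicate 1 was left out (0.0651 and 0.0654 without KO replicates 1 and 2, 0.194 and 0.0815 without control replicates 1 and 2, 0.162 without KO + H-151 replicate 2), with only the groups compared (0.0671), in DESeq2 (0.0913) and without a trend (0.121). The 3' end of Nid2 overlaps an exon of Rtraf on the opposite strand. Rtraf stood at 124 and 120 in control, 155 and 145 in KO and 122 and 114 in KO + H-151, so it was highest where Nid2 was lowest.

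Promoter windows from RefSeq (GRCm38.p6, 250 bases before to 50 after a start) were at hand for 18 of the 28 genes, in 19 windows. GGAATG stood on either strand in 3 of the 19 (Itga10, Itgb1 and Nid1), and in 14.7% of all 32851 windows of this length. The ISRE stood in 1 of the 19 (a window of Itga3), and in 3.44% of all windows. No window of a member held both, and a match is only a description of the letters. Nid1, which rose in KO, and Itgb1, which did not pass there, are shown because they are the members with GGAATG on the gene's own strand, in capitals, beginning 165 and 7 bases before the start (200 bases before each start, plus strand, chr13:13437402-13437601 for Nid1 and chr8:128685454-128685653 for Itgb1).
Nid1: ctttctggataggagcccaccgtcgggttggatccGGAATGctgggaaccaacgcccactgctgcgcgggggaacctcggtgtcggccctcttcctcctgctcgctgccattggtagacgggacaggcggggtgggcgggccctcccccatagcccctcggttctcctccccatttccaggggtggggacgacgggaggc
Itgb1: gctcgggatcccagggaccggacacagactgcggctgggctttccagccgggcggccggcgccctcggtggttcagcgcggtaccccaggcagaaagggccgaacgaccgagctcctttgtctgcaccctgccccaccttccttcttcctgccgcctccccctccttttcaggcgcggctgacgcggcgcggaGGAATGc

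In 8 of the 28 members (28.6%: Itga2, Itga6, Itga7, Itga9, Itgb4, Itgb8, Lama1 and Nid1) a rise in KO stood beside a fall with H-151, as it did in 1852 of all 13648 genes tested (13.6%). These comparisons share the KO libraries, which favours such a pair of calls, so nothing is read from that count. Some markers of Schwann cells were also highest in the KO libraries. Of 11 Schwann cell and melanocyte markers, 8 were tested, and in KO against control 5 rose and 2 fell. Their summed level was 93.3 to 102 in control, 320 to 362 in KO and 42.5 to 46.3 in KO + H-151. The neural crest factor Sox10 stood at 15.2 and 10.8 in control, 42.3 and 47.9 in KO, and 3.46 and 2.94 in KO + H-151, and the neurotrophin receptor gene Ngfr at 51.6 and 50.01, 188 and 210, and 15.9 and 14.8. The myelin gene Mbp stood the other way, at 3.06 and 2.16, 1.48 and 1.36, and 5.62 and 5.88. Erbb3 and Mlana were also higher in KO, Dct was lower, and Pmel did not pass. Schwann cells are known to express α6β4 and α7β1 integrins, and their part in these differences was not tested.

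Of 12 keratinocyte markers, only 2 were among the genes of the expression table (Krt10 and Sfn), and both were tested. Krt5, Krt14 and Trp63 were among those absent from it. The sum of Krt10 and Sfn was 11.8 and 12.04 in control, 18.5 and 15.6 in KO and 14.3 and 12.5 in KO + H-151. Sfn was higher in KO (0.67 ± 0.19, adjusted p = 0.0133, limma) and lower with H-151 against KO (-0.55 ± 0.19, 0.0316), as were Itga2 and Itgb4, chains also known from epithelia. Itga3, an epithelial chain too, went the other way. It was lower in KO without passing the test (-0.52 ± 0.22) and higher with H-151 against KO (0.60 ± 0.22, adjusted p = 0.0389, limma). Krt10 passed in no comparison. The sum of 7 endothelial markers was 21.1 to 25.0, but it covers opposite changes at low levels. In KO 4 of them fell (Pecam1 by -1.54, Emcn by -1.41, Cdh5 by -1.14 and Egfl7 by -0.71) and 2 rose (Flt1 by 1.28 and Kdr by 0.82). With H-151 against KO 3 rose and 1 fell. The 7 smooth muscle and pericyte markers summed to 145 to 161 in control, 185 to 189 in KO and 95.1 to 118 in KO + H-151, with 3 of 7 higher in KO and 5 lower with H-151 against KO. Their part in the differences was not tested.

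**Figure D4:**
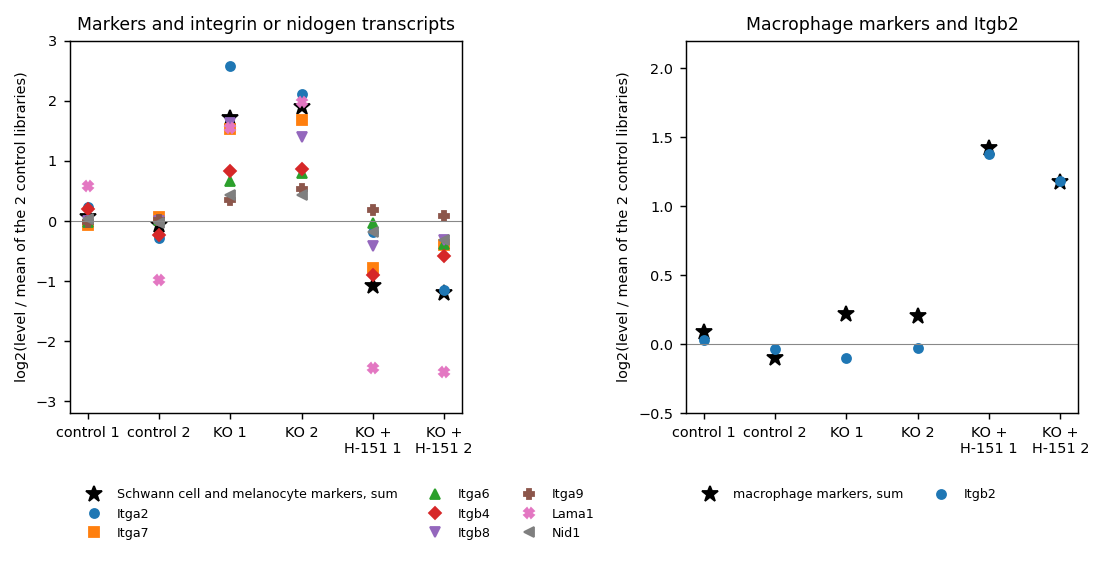
Left, log2 ratio to the mean of the 2 control libraries for the 8 members that rose in KO and fell with H-151 against KO, with the summed Schwann cell and melanocyte markers (stars); right, the same for Itgb2 and the summed macrophage markers. On the left all points are above 0 in the KO libraries, which for the 8 members follows from how they were chosen. On the right both series are high only in the KO + H-151 libraries, where Itgb2 was 27.6 and 24.1 scaled CPM.

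The genes that work with these receptors were taken from 3 lists. Of 28 tested adhesion adaptors and kinases, 2 rose and 8 fell in KO, 7 rose and 6 fell with H-151 against KO, and 4 rose and 11 fell in KO + H-151 against control (medians -0.06, -0.11 and -0.19). The shares with H-151 against KO, 25% and 21.4%, were near the 19.4% and 21.4% of all genes, while 7.14% and 28.6% stood beside 18.2% and 14.2% in KO, and 14.3% and 39.3% beside 11.5% and 11.4% against control. In KO the scaffold gene Bcar1 fell by 0.78 ± 0.08 on the log2 scale (adjusted p = 9.95e-07, limma), the tensin Tns2 by 0.93 ± 0.11 and the LIM protein gene Zyx by 0.56 ± 0.08, while the actin crosslinker Actn1 did not pass (-0.08 ± 0.09, 0.546). With H-151 against KO, Tns2 rose by 0.90 ± 0.11 and the focal adhesion kinase gene Ptk2 fell by 0.71 ± 0.09 (9.67e-06). Fermt3, the kindlin of blood cells, rose by 1.78 ± 0.14, from 7.05 and 6.90 scaled CPM to 27.2 and 25.8. Macrophage markers were high in the same libraries, and the part of these cells in the Fermt3 difference was not tested. Against control, Fermt3 (1.57 ± 0.14) and Parvb (0.95 ± 0.15) were higher with H-151, and Zyx (-0.67 ± 0.08) and Actn1 (-0.50 ± 0.09) lower.

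Of 15 tested integrin ligands, 7 rose and 2 fell in KO, 1 rose and 10 fell with H-151 against KO, and 2 rose and 11 fell in KO + H-151 against control (medians 0.19, -0.57 and -0.47). As shares, 46.7% rose and 13.3% fell in KO (18.2% and 14.2% of all genes), 6.67% and 66.7% with H-151 against KO (19.4% and 21.4%), and 13.3% and 73.3% against control (11.5% and 11.4%). The cell-surface ligands Vcam1 (1.23 ± 0.06, adjusted p = 1.07e-10, limma) and Icam1 (1.37 ± 0.08) rose in KO and fell with H-151 (-1.43 ± 0.06 and -1.43 ± 0.08). The matricellular Thbs1 fell in KO (-0.97 ± 0.09), and the RGD ligand Edil3 fell with H-151 against KO (-1.82 ± 0.12). Fibronectin, Fn1, stood at 2118 and 2149 in control, 2349 and 2513 in KO, and 1567 and 1698 in KO + H-151. Fn1 did not pass in KO (0.19 ± 0.07, adjusted p = 0.0646) and fell with H-151 (-0.57 ± 0.07 against KO, -0.39 ± 0.07 against control), as did Fbln5 (-0.81 ± 0.06), Tnc (-0.66 ± 0.07) and Egfl6 (-0.74 ± 0.09) against control.

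Of 18 other basement membrane genes tested, 9 rose and 2 fell in KO, 1 rose and 11 fell with H-151 against KO, and 5 rose and 5 fell in KO + H-151 against control (medians 0.33, -0.26 and -0.02). These are 50% and 11.1% in KO, 5.56% and 61.1% with H-151 against KO and 27.8% in each direction against control, beside the same shares of all genes. The basement membrane collagen Col18a1 stood at 61.2 and 66.0 in control, 174 and 185 in KO, and 36.0 and 35.8 in KO + H-151, and the proteoglycan Agrn, a laminin-binding protein, at 44.0 and 40.3, 108 and 120, and 27.8 and 19.7. For both, KO was highest and KO + H-151 below control: Col18a1 by 1.48 ± 0.08 in KO (adjusted p = 1.64e-10, limma) and -2.29 ± 0.08 with H-151, Agrn by 1.41 ± 0.12 and -2.23 ± 0.12. Against control, Col18a1 (-0.81 ± 0.08), Agrn (-0.82 ± 0.12) and the fibulin gene Fbln2 (-0.94 ± 0.08) were lower with H-151, and Fbln2 fell against KO as well (-0.89 ± 0.08). Col15a1 rose by 1.26 ± 0.12 in KO. Sparc, the most abundant of the list, passed only with H-151 against KO (-0.46 ± 0.10, 0.00109). Over the 3 lists together, KO against control had 18 higher and 12 lower genes, but 13 and 28 under total-count scaling and 15 and 22 under quantile normalization. With H-151 against KO 9 were higher and 27 lower, but 14 and 18, and 14 and 16, under those scalings. The counts of all genes moved too, in KO to 1727 higher and 4054 lower, and 1914 and 2987. With H-151 against KO those scalings gave 4770 and 1930, and 3546 and 2179, of all genes.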

How the data were processed

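RNA of 6 libraries was read at 3' ends (QuantSeq). STAR 2.5.3a, featureCounts, edgeR and mm10 are named in the submitters' processing notes, and annotation, strand setting and filters are not given in the sources used here. The deposited signal is 1 value per gene and library, given as CPM by the authors. Columns sum to 955838 to 1083568, so the values are called scaled CPM, and the test planned for CPM was kept. All values (100%) were whole multiples of the value of 1 read within 0.0006, which gave whole reads.

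The values were put on the log2(scaled CPM + 1) scale. The 13648 genes that reached 1 scaled CPM in 2 or more libraries were fitted together with 1 mean per group in limma 3.58.1 (R 4.3.3) with a trend in the prior variance (3 residual degrees of freedom, 15.7 after moderation), and adjusted with Benjamini-Hochberg. The code was tested on simulated data. Members and lists were chosen with earlier results of these data known. Full values are given for members past the threshold with a 1.5-fold difference and the most abundant of each role, and for up to 4 genes per list and comparison, the 3 with the smallest p and the most abundant. Other genes were named after their values were seen. Counts cover all 28 members, of which 27 are named, and 1 is not reported here.

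Other settings tried were a pseudocount of 0.25 or 4, leaving the filter out, a mean of at least 10, total-count scaling, quantile normalization, only the groups compared, no trend, a replicate term, each library left out, and tests of the whole reads with edgeR 4.0.16 (TMM scaling, quasi-likelihood) or DESeq2 1.42.0. In KO against control edgeR called 2423 genes higher and 1851 lower, with H-151 against KO 2614 and 2899, and with H-151 against control 1626 and 1585. Positions are from GENCODE M21 (GRCm38, the mm10 build).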

Additional observations from a re-analysis of the deposited data

How the results depend on the processing

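The number of reads limits Itga2, Itga10, Lama1, Itga3, Itga4 and Itgb4, with 4 to 117 reads per group, and 2 libraries per group limit all differences. Of 44 differences of the 27 named members past the threshold, 22 were called under every alternative in which they were tested, and 43 kept their sign; the exception is Lamb1 with H-151 against KO under quantile normalization. Of 37 that missed it, 9 passed under at least 1 alternative.

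Counts of members moved as follows. In KO against control 7 were higher with a mean of at least 10, which leaves fewer members and genes tested, beside 1878 of 9030 genes. In the same comparison 1 was lower without a trend in the prior variance and 2 in DESeq2, beside 1607 and 1217 of all genes (1938 in the report). With H-151 against KO 7 and 6 were higher under total-count scaling and quantile normalization, beside 4770 and 3546 of the 13648 genes tested. In KO + H-151 against control 3 were lower without a trend, beside 937 of all genes (1562 in the report). In DESeq2 1 was higher there, beside 1100 of all genes (1570 in the report). Leaving out 1 library gave 8 to 12 higher and 1 to 4 lower in KO against control (1 lower without control replicate 2 or KO replicate 1), and 2 to 3 higher and 10 to 13 lower with H-151 against KO. It gave 1 to 4 higher (1 without control replicate 2, 2 without control replicate 1 or either KO + H-151 library) and 3 to 8 lower (3 without control replicate 2) in KO + H-151 against control. For the 3 lists of partner genes, 28 and 22 genes were lower in KO under total-count scaling and quantile normalization (12 in the report). With H-151 against KO 14 were higher under both (9 in the report), and 16 lower under quantile normalization (27). With H-151 against control 4 were higher and 17 lower without a trend, and 7 higher with only the groups compared or in DESeq2 (11 and 27 in the report). Leaving out 1 library gave 5 to 9 higher with H-151 against KO (5 without KO replicate 2) and 5 to 8 higher with H-151 against control (5 without either control library, 6 without KO + H-151 replicate 1, 7 without either KO library). Except where a cause is given, the cause was not tested.

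Deviations of same-numbered libraries correlated at -0.0676 (control and KO), 0.154 (control and KO + H-151) and -0.128 (KO and KO + H-151). These values show no pairing by replicate number, but with 2 libraries per group they cannot exclude it. With the replicate block 12 members were higher and 4 lower in KO against control, 3 and 13 with H-151 against KO, and 4 and 8 with H-151 against control. A crossed pairing of KO and KO + H-151, added after seeing the data, gave 3 and 13.

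A sign change was seen 30 times over these differences and their alternatives, 0 of them past the threshold under the alternative (limma). Under total-count scaling, Itgav (-0.0071), Itgb1 (-0.057), Itga11 (-0.11), Lamb1 (-0.10), Itga5 (-0.091), Itgb5 (-0.082) took the other sign in KO against control. Under total-count scaling, Lamc1 (0.061), Lama2 (0.017), Lama4 (0.14) took the other sign in KO + H-151 against KO. Under quantile normalization, Itgb1 (-0.069), Itga11 (-0.10), Lamb1 (-0.10), Itgb5 (-0.072) took the other sign in KO against control. Under quantile normalization, Lamc1 (0.064), Lama4 (0.15), Lamb1 (0.014) took the other sign in KO + H-151 against KO. Under quantile normalization, Lama5 (-0.024) took the other sign in KO + H-151 against control. When 1 library was left out, the range of the log2 difference spanned 0 for Itga11 (-0.044 to 0.14), Itga5 (-0.10 to 0.23), Itgb5 (-0.00079 to 0.16), Lamb1 (-0.030 to 0.15) in KO against control, for Lama4 (-0.11 to 0.032) in KO + H-151 against KO, for Itga3 (-0.19 to 0.35), Lama2 (-0.011 to 0.17), Lama5 (-0.062 to 0.092), Lamb2 (-0.042 to 0.14) in KO + H-151 against control.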
